A study of Homo sapiens with 16 samples.

Results

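The S100 genes S100A4, S100A6, S100A10, S100A11, S100A13 and S100A16 were examined in HAP1, a near-haploid human cell line, in which S100A6 RNA was absent from a knockout line of another gene. They were chosen by name, for that absence, to ask whether family members that lie near S100A6 move with it, and they are 6 of 33121 entries in the count table. Poly-A selected RNA was sequenced in 16 libraries, 4 in each of 4 groups: SLC30A10 knockout cells with their control, and cells with a different gene deleted (the second knockout) with a control of their own (the second control). SLC30A10 encodes a manganese exporter. By the labels, the control sets are the same line under a shared identifier while either knockout is listed under a separate one. The labels do not say how many clones or separate cultures were used, so p-values measure only the spread between these libraries.

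Depth was even, at 16058856 to 16648151 counts per library. A library's 3 counts are worth 0.181 to 0.187 CPM (counts per 1000000 counts of a library after scaling). SLC30A10 itself had 3 to 11 counts in its knockout and 6 to 9 in its control, and at that level its RNA does not check the label. The HAP1 line comes from a leukaemia but grows attached. Of 10 blood cell markers, HBG1, HBG2 and MPO were at 0 in every library and KIT and HBA1 were the tested members. The summed level of those 10 markers was 16.01 to 18.7 CPM in the SLC30A10 control, 20.7 to 23.5 CPM in its knockout, 16.1 to 18.4 CPM in the second control and 10.9 to 13.3 CPM in the second knockout. RNA was measured in bulk, so fewer cells with a transcript and less RNA per cell cannot be told apart.

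S100 proteins are small calcium sensors with a pair of EF-hand motifs, and most act as dimers that expose a binding surface for target proteins when calcium rises. They have no enzyme activity of their own. Many of their genes lie in a cluster on the long arm of chromosome 1 that is often rearranged in tumours, and annexins, membrane-binding proteins that also need calcium, are among their best known partners. S100A10 is the exception in the family because it binds its annexin partner without calcium.

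All 6 genes lie on the minus strand of chromosome 1 in the RefSeq annotation of GRCh38.p14. S100A6 spans chr1:153534599-153535991, and S100A4 (chr1:153543621-153545806) is its nearest neighbour in the set, with 7629 bases between them. S100A16 (chr1:153606883-153613137) and S100A13 (chr1:153618799-153634361) start 72.3 and 84.2 kb from the S100A6 start. S100A11 (chr1:152032506-152037004) and S100A10 (chr1:151982915-151993859) lie on the other side, 1502.1 and 1551.7 kb away. The stretch from S100A10 to S100A13 holds the starts of 95 RefSeq genes, of which 65 are in the count table and 7 passed the filter on low counts. These were 5 genes of the set, S100A1 and CHTOP, both of which start within the span of S100A13.

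The promoters of S100A6, the lost gene, of S100A4, its neighbour, and of S100A11, which moved most in the SLC30A10 knockout, are shown from 250 bases before to 50 bases after the RefSeq start, 5′ to 3′ on the minus strand of GRCh38.p14, with motif matches in capitals.
S100A6: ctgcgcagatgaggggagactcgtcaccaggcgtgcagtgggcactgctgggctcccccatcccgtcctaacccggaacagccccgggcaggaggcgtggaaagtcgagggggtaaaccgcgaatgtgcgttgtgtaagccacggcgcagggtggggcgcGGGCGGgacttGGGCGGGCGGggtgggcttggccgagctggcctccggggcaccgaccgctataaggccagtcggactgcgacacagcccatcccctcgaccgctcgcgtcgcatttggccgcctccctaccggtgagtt
S100A4: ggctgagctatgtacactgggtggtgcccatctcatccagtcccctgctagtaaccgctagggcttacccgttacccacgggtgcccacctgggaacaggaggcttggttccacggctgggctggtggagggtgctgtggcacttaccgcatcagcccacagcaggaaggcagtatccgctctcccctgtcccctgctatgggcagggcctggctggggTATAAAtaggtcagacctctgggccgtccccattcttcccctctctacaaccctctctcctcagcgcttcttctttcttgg
S100A11: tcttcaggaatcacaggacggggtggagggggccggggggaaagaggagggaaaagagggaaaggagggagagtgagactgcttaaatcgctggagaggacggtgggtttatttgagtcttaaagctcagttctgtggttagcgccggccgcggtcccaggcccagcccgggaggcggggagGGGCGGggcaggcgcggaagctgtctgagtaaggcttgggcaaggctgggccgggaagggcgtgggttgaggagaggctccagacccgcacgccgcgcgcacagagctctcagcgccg
These windows are chr1:153535942-153536241, chr1:153545757-153546056 and chr1:152036955-152037254.

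Both strands were searched for 5 motifs, and the share of 27305 RefSeq promoters of the same length with a match is given for each. The TATA box, spelled TATAAA, occurs in 11.95%. The CCAAT box, by those letters, occurs in 35.7%. The GC box, spelled GGGCGG, occurs in 44.59%. The AP-1 site, spelled TGANTCA, occurs in 7.764%, and the antioxidant response element, spelled TGACNNNGC, in 13.56%. No match overlapped a match of another motif in these 6 windows. The S100A6 window holds 3 GC boxes, 2 of which overlap, and 31 CpG dinucleotides, more than 79.6% of promoters. The S100A4 window holds a TATA box, no GC box and 8 CpGs, more than 39.9% of promoters. The S100A11 window holds 1 GC box and 22 CpGs. Among the windows not shown, S100A10 has 32 CpGs and 1 GC box, S100A13 has 19 CpGs, a GC box and an antioxidant response element, and S100A16 has 3 CpGs and an antioxidant response element. S100A13 has 3 listed starts and S100A16 has 2, and only the first listed start of each gene was used. No match to the CCAAT box or the AP-1 site was found in these 6 windows. The promoter of S100A6 is thus unlike that of its nearest neighbour in the set in CpG content and in exact matches to the motifs searched. This is a description of sequence only. The S100A6 window does hold TATAAG, which differs from the TATA box searched in its last letter and was not counted.

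S100A6, also called calcyclin, is a calcium sensor that binds CACYBP (calcyclin-binding protein) and several annexins, and its RNA was present in 3 groups and absent from 1. The counts in libraries 1 to 4 were 223, 227, 231 and 229 in the SLC30A10 control, 219, 222, 238 and 229 in the SLC30A10 knockout, and 276, 245, 231 and 196 in the second control. In the second knockout they were 0, 1, 0 and 0. The levels were 13.8 ± 0.219 CPM (SD, n = 4) in the SLC30A10 control, 14.1 ± 0.445 CPM (SD, n = 4) in its knockout and 14.4 ± 2.07 CPM (SD, n = 4) in the second control. With 3 counts per library as the floor, S100A6 RNA in the second knockout was lower than in its control by at least 78.4-fold. This contrast chose the set and is given as a description, with no test.

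Between the SLC30A10 knockout and its control, S100A6 differed by a log2 fold change of 0.022 ± 0.089 (SE), with a 95% interval of -0.16 to 0.20 (adjusted p = 0.865, edgeR quasi-likelihood test with Benjamini-Hochberg adjustment over 15569 genes). The libraries of these groups overlapped. Its coefficient of variation was 1.58% in the SLC30A10 control and 3.17% in the SLC30A10 knockout, below the 6.63% and 6.64% that counting error alone gives on average, but 14.4% in the second control against 6.50% from counting. S100A6 exons overlap an antisense gene in GENCODE release 29, and the use of strand in counting is not given in the sources used here.

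**Figure D1:**
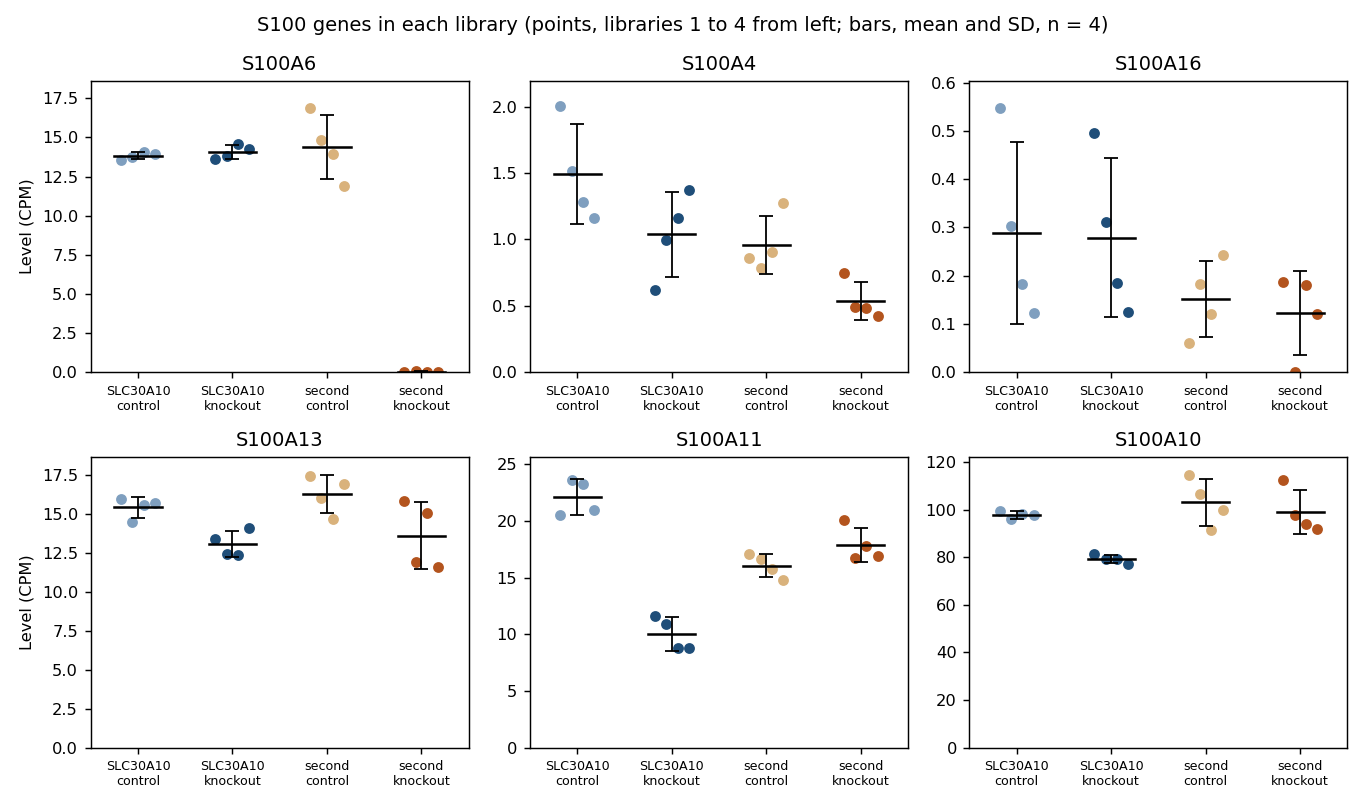
Level of each S100 gene (vertical axis, CPM, a separate scale in each panel) in the 16 libraries, with points for libraries 1 to 4 and bars for the group mean and SD (n = 4). S100A6 falls to 0 or 1 counts only in the second knockout, while S100A11 is lowest in the SLC30A10 knockout at 8.76 to 11.6 CPM.

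Loss to this degree was rare in the second knockout. Of 11647 genes that averaged 5 CPM or more in the second control, 7 (0.0601%) had at most 3 counts in each second knockout library. They were FUT9, LBX1-AS1, PRRX1, PTPRN2, S100A6, TRPC4 and WBP5, and S100A6 had the highest control level among them after WBP5 (14.5 CPM). FUT9, PRRX1, TRPC4 and WBP5 were also lost in the SLC30A10 knockout, in which 10 of 11601 genes were lost by the same rule. S100A6, LBX1-AS1 and PTPRN2 were kept there, at 14.1, 8.54 and 12.6 CPM.

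S100A4, known as metastasin for its link to cell motility, lies beside S100A6 and was a low transcript. Its counts in libraries 1 to 4 were 33, 25, 21 and 19 in the SLC30A10 control and 10, 16, 19 and 22 in the SLC30A10 knockout. The second control had 14, 13, 15 and 21 and the second knockout 12, 8, 8 and 7. Each second knockout library lay below each second control library, by a narrow margin of 12 against 13 counts. The second knockout had 0.536 ± 0.144 CPM (SD, n = 4) of it and the second control 0.955 ± 0.218 CPM (SD, n = 4), for a log2 fold change of -0.83 ± 0.32 (SE) that missed the threshold (adjusted p = 0.0757, edgeR). The 95% interval ran from -1.48 to -0.18, far from the loss of S100A6. Without library 1 of the second knockout the adjusted p was 0.0489 (edgeR) at a log2 fold change of -1.02. With both control sets pooled the value was -1.18 (adjusted p = 0.00858, edgeR), and against the SLC30A10 control set it was -1.47 (adjusted p = 0.000118, edgeR).

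In the SLC30A10 experiment the S100A4 level was 1.49 ± 0.376 CPM (SD, n = 4) in the control and 1.04 ± 0.317 CPM (SD, n = 4) in the knockout, with overlapping libraries. The log2 fold change was -0.52 ± 0.25 (SE; adjusted p = 0.0891, edgeR). It passed the threshold without library 4 of that knockout (adjusted p = 0.0466, edgeR). The knockout effects differed by 0.31 ± 0.40 (SE; adjusted p = 0.593, edgeR). S100A4 was higher in the SLC30A10 control than in the second control, by 0.64 ± 0.25 (SE; adjusted p = 0.0412, edgeR), although these sets carry the same line identifier. That call was lost without library 1 or 2 of the SLC30A10 control or library 1, 2 or 3 of the second control, with an adjusted p of up to 0.170, and also with DESeq2 (adjusted p = 0.106).

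S100A16, a widely expressed S100 protein, was too low to pass the filter. It had 2 to 9 counts in the SLC30A10 control, 2 to 8 in the SLC30A10 knockout, 1 to 4 in the second control and 0 to 3 in the second knockout. Two-sided exact permutation tests of 4 against 4 libraries gave p = 1 for the SLC30A10 knockout, p = 0.714 for the second knockout and p = 0.171 between the control sets, where 0.0286 is the smallest possible, and adjusted values of 1, 1 and 0.514. A change of S100A16 was not detectable at this depth.

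S100A13, which takes part in the release of FGF1 and other proteins that lack a signal peptide, fell slightly in the SLC30A10 knockout. Its counts in libraries 1 to 4 were 263, 239, 256 and 258 in the SLC30A10 control and 216, 201, 202 and 227 in the knockout, so that the groups did not overlap. The mean fell from 15.5 ± 0.661 to 13.1 ± 0.827 CPM (SD, n = 4), and the log2 fold change was -0.24 ± 0.091 (SE; adjusted p = 0.0370, edgeR). The call was close to the threshold and was lost without library 1, 2 or 3 of the knockout or library 1, 3 or 4 of the control, with an adjusted p of up to 0.0974.

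In the second experiment the S100A13 counts were 286, 265, 244 and 279 in the control and 255, 195, 249 and 192 in the knockout. Libraries 1 and 3 of the knockout reached the range of the control, and libraries 2 and 4 lay well below it. The levels were 16.3 ± 1.22 and 13.6 ± 2.16 CPM (SD, n = 4), and the log2 fold change of -0.26 ± 0.090 (SE) missed the threshold (adjusted p = 0.0553, edgeR). Without library 1, without library 3, or without library 3 of the second control, the adjusted p was 0.0130, 0.0284 and 0.0394 (edgeR). The difference between the knockout effects was 0.019 ± 0.13 (SE), with a 95% interval of -0.24 to 0.28 (adjusted p = 0.929, edgeR). S100A13 exons overlap those of S100A1 on the opposite strand, so their reads cannot be told apart if strand was not used. S100A1, a calcium sensor best known in muscle, had only 7 to 25 counts per library against 192 to 286 for S100A13.

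S100A11, also called calgizzarin, a partner of annexin A1, was the member that moved most in the SLC30A10 knockout. Its counts in libraries 1 to 4 were 337, 390, 382 and 344 in the SLC30A10 control and 187, 176, 143 and 141 in the knockout. Every knockout library was far below every control library. The level fell from 22.1 ± 1.60 to 10.02 ± 1.47 CPM (SD, n = 4), which is 2.21-fold lower (log2 fold change -1.14 ± 0.091, SE; adjusted p = 6.41e-11, edgeR).

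The second knockout had 322, 273, 294 and 280 counts of S100A11 against 279, 275, 262 and 244 in its control, with overlapping libraries. The levels were 17.9 ± 1.52 and 16.1 ± 0.998 CPM (SD, n = 4), and the log2 fold change of 0.15 ± 0.086 (SE) did not pass the test (95% interval -0.023 to 0.33; adjusted p = 0.271, edgeR). The test of the difference between the knockout effects gave -1.29 ± 0.12 (SE; adjusted p = 5.36e-09, edgeR). The control sets also differed, with S100A11 higher in the SLC30A10 control by 0.46 ± 0.084 (SE; adjusted p = 0.000111, edgeR). Measured against the second control instead of its own, the SLC30A10 knockout remained lower by a log2 value of -0.68. The same exchange for the second knockout turned its S100A11 value from 0.15 to -0.31 (adjusted p = 0.00334, edgeR), so the direction there depended on the control set.

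S100A10, also called p11, which pairs with annexin A2 at membranes, was the highest of the 6 in counts and per length. Its counts in libraries 1 to 4 were 1636, 1581, 1610 and 1601 in the SLC30A10 control and 1307, 1279, 1291 and 1241 in the knockout, with no overlap. The mean fell from 97.8 ± 1.52 to 79.2 ± 1.62 CPM (SD, n = 4), and the log2 fold change was -0.30 ± 0.059 (SE; adjusted p = 0.000167, edgeR). In the second experiment the counts were 1873, 1759, 1515 and 1644 in the control and 1805, 1596, 1552 and 1517 in the knockout. Those groups overlapped, at 103 ± 9.90 and 99.0 ± 9.32 CPM (SD, n = 4), and the log2 fold change was -0.058 ± 0.058 (SE; 95% interval -0.18 to 0.062; adjusted p = 0.578, edgeR). The effects of the knockouts differed by -0.25 ± 0.083 (SE; adjusted p = 0.0248, edgeR). That difference no longer passed without library 3 of the second control (adjusted p = 0.0537, edgeR) or library 1 of the second knockout (adjusted p = 0.0546, edgeR).

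Library 1 was the highest of its group for S100A10, S100A11 and S100A13 in both the second control and the second knockout, and for S100A6 in the second control and S100A4 in the second knockout. The 10 most abundant genes took 4.03% and 3.93% of the counts in these libraries, the highest shares of their groups. The part of this in the results was not tested.

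**Figure D2:**
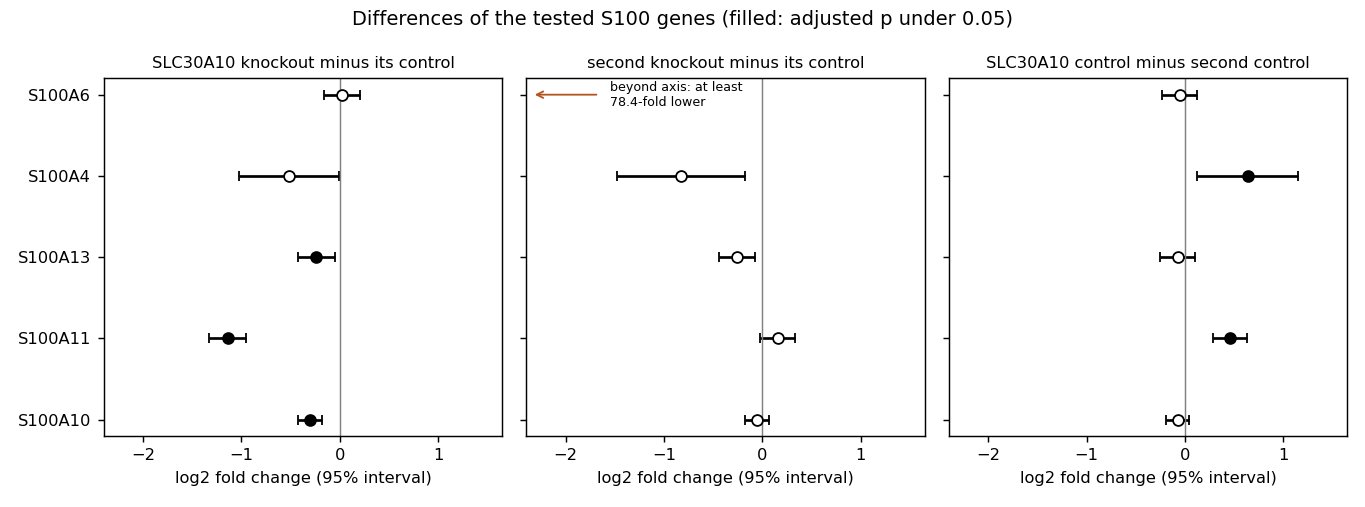
Log2 fold changes (horizontal axis) of the 5 tested S100 genes with 95% intervals in 3 comparisons, with filled points for an adjusted p under 0.05. S100A6 in the second knockout lies beyond the axis, at least 78.4-fold lower. S100A10, S100A11 and S100A13 are called lower in the SLC30A10 knockout, and none of the 4 other genes is called in the second knockout.

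In the second knockout, 0 of the 4 other tested members passed the threshold (edgeR), against 13.7% of all 15569 tested genes (6.67% higher and 7.03% lower). At an unadjusted p under 0.05, 2 of the 4 passed, S100A4 and S100A13, both lower, against 25.9% of all tested genes (13.2% lower), and the DESeq2 Wald test also called 0 of the 4. For 1 of the 4, S100A4, the libraries did not overlap, as for 16.3% of all tested genes. In the SLC30A10 knockout, where S100A6 stayed at its control level, 3 of 5 tested members were called, all lower, against 41.4% of all tested genes in either direction (21.2% higher and 20.2% lower). The libraries of these 3 did not overlap between the groups, as for 38.3% of all tested genes. Of the 4 tested members apart from S100A6, 2 had a called difference between the knockout effects, S100A10 and S100A11, both on the lower side (31.3% of all tested genes, 14.6% on that side). Between the control sets 2 of the same 4 differed, S100A4 and again S100A11, both higher in the SLC30A10 control (39.3% of all tested genes, 18.5% higher and 20.8% lower). The libraries of S100A11 did not overlap there, as for 36.3% of all tested genes. These comparisons share control libraries, so their values stand side by side and were not correlated.

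Among the 15 other S100 family symbols, all in the table, only S100A1 passed the filter. Its log2 fold change was -0.59 ± 0.29 (SE; adjusted p = 0.109, edgeR) in the SLC30A10 knockout and 0.20 ± 0.28 (SE; adjusted p = 0.722, edgeR) in the second knockout. Of the rest, 6 had 0 counts in all 16 libraries, and no other had more than 8 counts in any library. The 7 fused S100 genes looked for, skin barrier genes of the same cluster such as FLG, did not pass the filter either.

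Levels of different genes were compared per length, in CPM per kb of the median GENCODE release 29 transcript. S100A10 had 87.2 to 113 CPM per kb over the group means and stood above every other member in every group. S100A13 had 23.3 to 28.9, S100A11 16.9 to 37.2 and S100A6 20.6 to 21.4 CPM per kb outside the second knockout, where S100A6 had 0.0228. S100A4 followed at 0.942 to 2.62 and S100A16 at 0.118 to 0.279 CPM per kb. The place of S100A13 depended on the length taken. With all exons merged, S100A13 had 5.91 to 7.35 CPM per kb, below S100A11 at 14.7 to 32.5 in each group. S100A13 was also below S100A6, at 14.3 to 14.8, in each group but the second knockout, where S100A6 had 0.0158.

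The genes around S100A6 were then examined in both knockouts. The 15 tested genes on either side span 2685.878 kb. In the second knockout 3 of these 30 passed the threshold (edgeR), against 13.7% of all tested genes, and their median log2 fold change was -0.0067 beside -0.0025 for all tested genes. SELENBP1, a selenium-binding protein gene, had 16 to 22 counts against 1 to 3, and with 3 counts per library as the floor it was at least 6.04-fold higher (adjusted p = 5.43e-07, edgeR). TUFT1, which encodes tuftelin, was higher by 0.44 ± 0.10 (SE; adjusted p = 0.00280, edgeR). CHTOP, an mRNA export factor gene, was lower by a log2 value of -0.13 ± 0.040 (SE; adjusted p = 0.0270, edgeR), and its call was lost without library 2 of the second knockout (adjusted p = 0.131, edgeR). S100A6 was thus lost between tested neighbours of which the nearest, S100A11 on one side and S100A4 on the other, were still detected in every second knockout library. S100A11 is 1502.1 kb away, however. Of the 80 RefSeq genes between S100A11 and S100A6, 52 were in the count table and 0 passed the filter. How far the loss extends within that stretch cannot be told from these counts. In the SLC30A10 knockout 6 of the 30 were called, against 41.4% of all tested genes, 1 higher and 5 lower, with a median of 0.0058 beside -0.0048 (0.0038 without SELENBP1, which had at most 3 counts in both groups). Of the 5 lower, 3 were S100A10, S100A11 and S100A13.

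**Figure D3:**
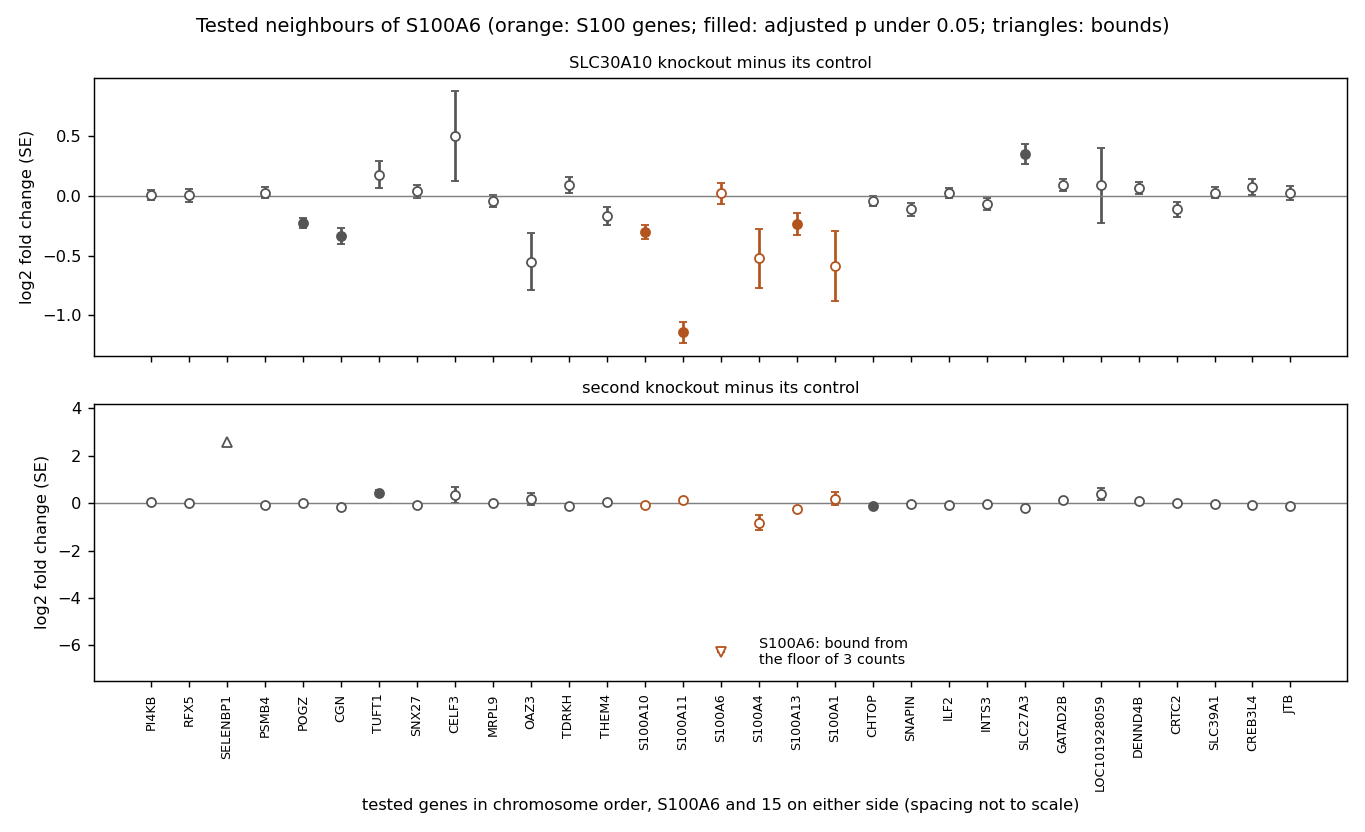
Log2 fold change with SE (vertical axes) of S100A6 and the 15 tested genes on either side in chromosome order, for the SLC30A10 knockout (upper) and the second knockout (lower), with filled points for an adjusted p under 0.05 and S100 genes in orange. Triangles mark bounds from the floor of 3 counts, at least 6.29 lower on the log2 scale for S100A6 and at least 6.04-fold higher for SELENBP1, which is left out of the upper panel because both groups there were at or under 3 counts. The medians of the 30 neighbours are 0.0058 and -0.0067.

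Across the 16 libraries, the members did not follow S100A6 closely. The Pearson r of log2(CPM + 0.5) with S100A6 was 0.71 for S100A4, 0.36 for S100A16, 0.34 for S100A13, -0.22 for S100A10 and -0.23 for S100A11. Over the 12 libraries without the second knockout, r was -0.33 for S100A4, -0.50 for S100A16, 0.096 for S100A13, 0.27 for S100A10 and -0.012 for S100A11, so that it changed sign for S100A4, S100A16 and S100A10. These are descriptions of libraries that share their groups, and the higher values rest on the second knockout. Between other members, r was highest for S100A10 with S100A11 (0.77) and S100A10 with S100A13 (0.67), and it was -0.068 for S100A4 with S100A10.

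The genes whose pattern over the 16 libraries was most like that of S100A6, of 11696 that averaged 5 CPM or more, were IQGAP1 (r = 0.998), PTPRN2 (0.997), TAL1 (0.994), FREM2 (0.994) and LBX1-AS1 (0.992). IQGAP1, a scaffold of the actin cytoskeleton, had 262 CPM in the SLC30A10 knockout and 283 CPM in its control, but 30.7 CPM in the second knockout against 294 CPM in its control. PTPRN2, a gene of secretory vesicles, had 12.6 and 10.1 CPM in the SLC30A10 knockout and control and 0.0769 against 10.7 CPM in the second experiment. TAL1, a blood transcription factor, had 13.4 CPM in the second knockout and 70.2 to 79.9 CPM in the other groups. FREM2, an extracellular matrix gene, had 2.12 CPM there and 48.5 to 66.4 CPM elsewhere. LBX1-AS1 had no count there and 6.02 to 8.54 CPM elsewhere. Each was like S100A6 in being low in the second knockout alone among the 4 groups. That likeness follows from the ranking, because S100A6 itself was low in that group alone, and it is a description only.

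**Figure D4:**
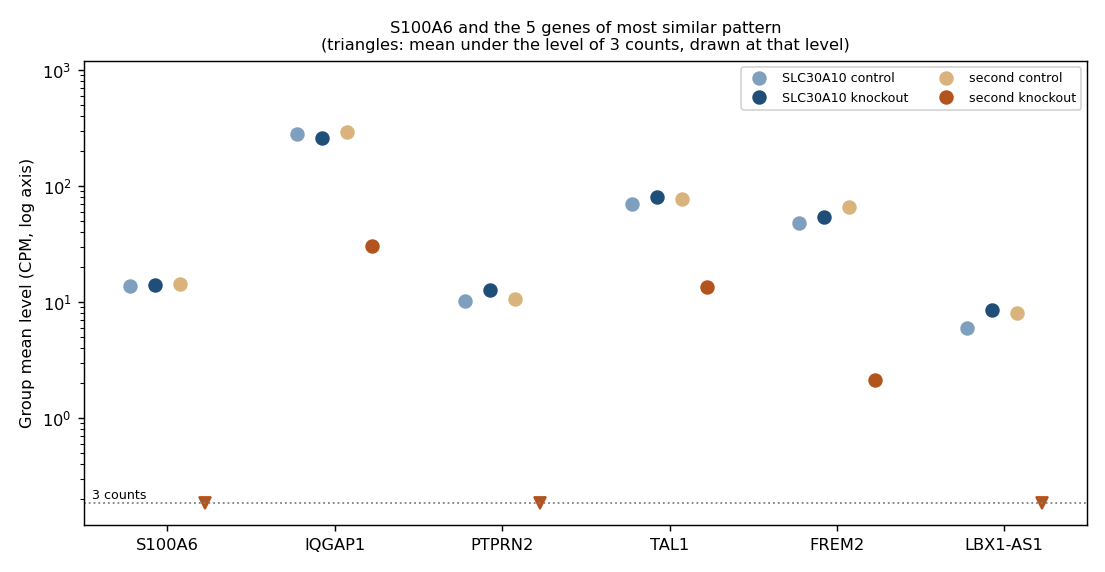
Group mean level (vertical axis, CPM, log scale) of S100A6 and the 5 genes whose pattern was most like it over 16 libraries. The second knockout is the lowest group for each, from 30.7 CPM for IQGAP1 to under the level of 3 counts (triangles) for S100A6, PTPRN2 and LBX1-AS1. This follows from ranking genes by their likeness to S100A6.

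Annexins, which bind S100A10, S100A11 and S100A6 among others, were described as a list of 13, of which 8 were tested. In the SLC30A10 knockout 1 was higher and 3 were lower (edgeR), 50% called against 41.4% of all tested genes (21.2% higher and 20.2% lower), with a median log2 fold change of -0.14 beside -0.0048 for all tested genes. ANXA2, the partner of S100A10, had 400, 405, 445 and 382 CPM in libraries 1 to 4 of the SLC30A10 control and 260, 256, 254 and 258 CPM in the knockout. The groups did not overlap, and ANXA2 fell by 0.67 ± 0.070 (SE) on the log2 scale (adjusted p = 1.54e-08, edgeR), in the same knockout as S100A10. ANXA5, the annexin used as a probe for phosphatidylserine, fell by 0.45 ± 0.039 (SE; adjusted p = 4.20e-10, edgeR), and ANXA6 fell by 0.22 ± 0.039 (SE; adjusted p = 6.18e-05, edgeR). ANXA2 was also higher in the SLC30A10 control than in the second control, by 0.55 ± 0.069 (SE; adjusted p = 1.30e-06, edgeR). The SLC30A10 knockout, at 254 to 260 CPM, lay within the range of the second control, at 252 to 311 CPM. The size of the ANXA2 fall thus depended on the control set.

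In the second knockout 1 of the 8 annexins was higher and 1 lower (edgeR), 25% called against 13.7% of all tested genes, with a median of -0.075 beside -0.0025. ANXA1, the partner of S100A11, had 9.54, 7.69, 7.29 and 8.80 CPM in the second control and 26.7, 16.9, 9.74 and 11.6 CPM in the second knockout. Its groups did not overlap but library 1 of the knockout stood far above the other 3, and ANXA1 rose by 0.96 ± 0.20 (SE; adjusted p = 0.000830, edgeR). Leaving out single libraries gave 0.62 to 1.14, and each value passed. In 3 of 4 second knockout libraries ANXA1 was still below its level in the SLC30A10 control, 19.4 to 23.9 CPM. ANXA6 fell by 0.12 ± 0.039 (SE; adjusted p = 0.0343, edgeR), a call lost without library 4 of the second control (adjusted p = 0.116, edgeR). ANXA2 differed by -0.061 in the second knockout (adjusted p = 0.637, edgeR).

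Of 24 other S100 binding partners, 21 were tested, and 4 were called in the second knockout, all lower. That was 19% called against 13.7% of all tested genes (7.03% lower), with a median of -0.063 beside -0.0025. IQGAP1 had 300, 292, 291 and 292 CPM in the second control and 30.2, 31.2, 31.7 and 29.8 CPM in the second knockout, and fell by 3.26 ± 0.041 (SE) on the log2 scale (adjusted p = 2.45e-28, edgeR). TPT1, the translationally controlled tumour protein gene, fell by 0.24 ± 0.037 (SE; adjusted p = 1.92e-05, edgeR), and AHNAK, a giant scaffold that binds S100A10 with annexin A2, fell by 0.20 ± 0.042 (SE; adjusted p = 0.00160, edgeR). CACYBP, looked up afterwards as the partner named for calcyclin, differed by -0.047 there (adjusted p = 0.499, edgeR).

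In the SLC30A10 knockout 4 of the 21 partners were higher and 7 lower, with a median of -0.073 beside -0.0048. FKBP4 and STIP1, cochaperones of HSP90, rose by 0.33 ± 0.034 (SE; adjusted p = 1.53e-08, edgeR) and 0.23 ± 0.037 (SE; adjusted p = 1.39e-05, edgeR). TPM1, a tropomyosin gene, fell by 0.35 ± 0.051 (SE; adjusted p = 3.91e-06, edgeR). TPM1 was also higher in the SLC30A10 control than in the second control, by 0.50 ± 0.052 (SE; adjusted p = 6.30e-08, edgeR). The SLC30A10 knockout, at 175 to 186 CPM, lay above the second control, at 157 to 168 CPM. The direction for TPM1 thus depended on the control set. The share called was 52.4% of the partners against 41.4% of all tested genes in this knockout, and 19% against 13.7% in the second.

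Of 40 other genes of the EF-hand class, 38 were tested. In the SLC30A10 knockout 11 were higher and 11 lower, 57.9% called against 41.4% of all tested genes, with a median of -0.016 beside -0.0048. CAPNS1, the small calpain subunit gene, fell by 0.39 ± 0.038 (SE; adjusted p = 3.72e-09, edgeR) and CETN2, a centrin gene, rose by 0.43 ± 0.058 (SE; adjusted p = 1.21e-06, edgeR). In the second knockout 3 were higher and 10 lower, 34.2% called against 13.7% of all tested genes, with a median of -0.070 beside -0.0025. RCN3, a gene of the endoplasmic reticulum, rose by 0.40 ± 0.063 (SE; adjusted p = 3.23e-05, edgeR), and its relative RCN2 fell by 0.20 ± 0.038 (SE; adjusted p = 0.000329, edgeR). CALML4, a calmodulin-like gene, moved in opposite directions against the own controls. It changed by -0.39 ± 0.051 (SE, adjusted p = 5.62e-07, edgeR) with SLC30A10 deleted and by 0.32 ± 0.052 (SE, adjusted p = 5.81e-05, edgeR) in the second knockout. The effects differed by -0.71 ± 0.073 (SE, adjusted p = 1.75e-08, edgeR). The control sets differed by more than either effect, 0.56 ± 0.051 higher in the SLC30A10 control (SE, adjusted p = 1.19e-08, edgeR). The SLC30A10 knockout, at 44.8 to 48.5 CPM, lay above the second control, at 41.1 to 43.4 CPM. The second knockout, at 49.5 to 57.8 CPM, lay below the SLC30A10 control, at 59.5 to 64.6 CPM. Both directions thus depended on the control set.

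S100A4 is a known gene of mesenchymal cells, so cell state markers are given beside the S100 values. The summed level of 10 mesenchymal markers was 1058 to 1098 CPM in the SLC30A10 control and 665 to 683 CPM in its knockout, where 3 of 8 tested markers were lower and 1 was higher, against 20.2% and 21.2% of all tested genes. The median log2 fold change of the 8 was -0.063 beside -0.0048. The higher one, named after its value was seen, was THY1, at 3.93 against 1.67 CPM (log2 fold change 1.23 ± 0.18, SE; adjusted p = 2.31e-06, edgeR). VIM made up most of the sum, at 357 CPM in the knockout and 629 CPM in the control. Of the 3 lower markers VIM, the gene of the filament protein vimentin, fell by 0.82 ± 0.071 (SE; adjusted p = 4.89e-10, edgeR), FN1 (fibronectin) fell by 1.44 ± 0.096 (SE; adjusted p = 2.60e-12, edgeR) and CDH2 (N-cadherin) fell by 0.78 ± 0.052 (SE; adjusted p = 3.16e-12, edgeR). In the second experiment the sum was 779 to 946 CPM in the control and 931 to 1138 CPM in the knockout, so the ranges overlapped. There 6 of 8 were called higher in the knockout (edgeR), against 6.67% of all tested genes, with a median of 0.23 beside -0.0025. CDH2, higher by 0.22, had 120 to 151 CPM in the second knockout and 150 to 161 CPM in the SLC30A10 control. ZEB1, higher by 0.37, had 84.7 to 88.9 CPM in the second knockout and 57.8 to 62.0 CPM in the SLC30A10 control. The direction against that other control set thus differed between these markers. The control sets, although the same line, also differed, with 4 of the 8 higher in the SLC30A10 control and 2 lower (edgeR). That was 75% called against 39.3% of all tested genes. FN1, VIM and CDH2 were among the higher, by 0.85 ± 0.092, 0.41 ± 0.070 and 0.38 ± 0.052 (SE). The 9 epithelial markers, with KRT19 at 0 in all libraries, summed to 63.1 to 70.7 CPM in the SLC30A10 control, 69.2 to 78.2 CPM in its knockout, 62.0 to 66.1 CPM in the second control and 49.6 to 53.9 CPM in the second knockout. KRT18 made up most of each sum, at group means of 35.0 to 51.1 CPM. In the SLC30A10 knockout 2 of 5 tested epithelial markers were higher and 2 lower (edgeR), 80% called against 41.4% of all tested genes. KRT18 and KRT8 rose by 0.26 and 0.36 on the log2 scale there, while ESRP1 fell by 0.29. In the second knockout 3 of 5 were lower and 0 higher (edgeR), 60% called against 13.7% of all tested genes (7.03% lower). The part of the mesenchymal and epithelial markers in the S100 values was not tested.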

How the data were processed

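Whole-number counts per gene symbol were deposited by the authors for 16 HAP1 libraries, with 33121 entries. The submitters' processing notes name HISAT2, featureCounts and DESeq2 and the builds hg38 and GRCh38, with no roles, and the annotation and strand setting are not given in the sources used here. The deposited normalized signal equals those counts times a constant per library (largest deviation 5.13e-06) and was used for an alternative scaling. The gene deleted in the second knockout is not reported here.

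Counts were fitted with edgeR 4.0.16 in R 4.3.3, all 16 libraries together with a mean for each of 4 groups. The edgeR expression filter (count 10, total 15) kept 15569 genes. Scaling used the trimmed mean of M-values (TMM), and quasi-likelihood p-values received a Benjamini-Hochberg adjustment over all tested genes, with 0.05 as the threshold. The common biological coefficient of variation was 0.0497. Levels are CPM of the scaled library size. Folds against a group at or under 3 counts per library are lower bounds and cover counting error only. Replicate pairs differed by more than sampling noise, with a chi-square of 1.62 to 6.65 per degree of freedom. The procedure was tested on simulated data.

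RefSeq GRCh38.p14 placed 91% of the tested genes and gave the promoters. GENCODE release 29 gave lengths and overlaps. The genes described and all lists were chosen with earlier results of these data known. From each list, at most 3 called genes per comparison with a mean of at least 5 CPM were named by smallest adjusted p. Neighbours of S100A6 were named where they were called in the second knockout. Alternatives were other scalings, DESeq2 1.42.0, no filter, a mean count of 50, an adjusted p of 0.01, separate fits, pooled or exchanged control sets, the replicate number as a block, and leaving out each library.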

Additional observations from a re-analysis of the deposited data

Results flagged for a closer look

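The effect on S100A11 differed between the knockouts by -1.29 ± 0.12 (SE) on the log2 scale (adjusted p = 5.36e-09, edgeR), with all 4 SLC30A10 knockout libraries below their control. The effect on S100A10 differed by -0.25 ± 0.083 (SE; adjusted p = 0.0248, edgeR), again with all 4 SLC30A10 knockout libraries below their control.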

How the results depend on the processing

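Of 331 alternative values for 17 results on single S100 genes, 290 kept their direction and their side of the threshold, 19 lost a call, 9 gained a call and 13 changed sign. The falls of S100A11 (-1.22 to -0.68) and S100A10 (-0.38 to -0.29) in the SLC30A10 knockout passed under each of 19 alternatives, and the lower bound on the S100A6 loss was 73.9- to 82.9-fold. The count of genes called in the second knockout moved from 2132 to 1229 at an adjusted p under 0.01 and to 7445 against the other control set. For the second knockout, the count of called members (0) became 1 without the filter, with pooled controls and with the replicate block. That count became 2 with the other control set and 0 to 2 with single libraries left out. The members called between control sets (2) became 1 without the filter, at a mean count of 50, at an adjusted p under 0.01, with DESeq2 and with the replicate block, and 1 to 2 with single libraries left out. The members with a called difference of effects (2) became 1 at an adjusted p under 0.01 and 1 to 2 with single libraries left out. Signs changed for the S100A13 difference of effects (-0.0056 with library totals, -0.058 to 0.090 with single libraries left out), and for S100A6 in the SLC30A10 knockout (-0.0058 with pooled controls, -0.033 with the other set). They also changed for S100A11 in the second knockout (-0.095 pooled, -0.31 with the other set, adjusted p = 0.00334, edgeR), for S100A4 in the SLC30A10 knockout (0.12 with the other set) and for S100A10 in the second knockout (0.017 with the other set). The cause was not tested. Same-numbered libraries did not deviate together (mean correlations -0.036, 0.059 and 0.028), and the replicate block called 6496, 2158, 4881 and 6180 genes. S100A4 and S100A16 lie near the counting limit.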
